A study of Mus musculus with 6 samples.

Results

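The epithelial cells of alveolar organoids were compared between a culture supported by normal fibroblasts (FBs) and a culture supported by fibrogenic FBs. Epithelial barcodes were chosen by measured counts, as those with at least 10000 unique molecular identifiers (UMIs, 1 per captured RNA molecule), at least 2 UMIs of Epcam, and a collagen content (Col1a1 and Col1a2 together) below 200 CPM (counts per 1000000 UMIs). This rule took 1635 of 5441 barcodes with normal FBs and 1255 of 8894 with fibrogenic FBs, or 2890 of the 14335 organoid barcodes and of the 33286 barcodes in the 6 libraries of the series. The series also holds 4 libraries of GFP+ lung cells, which were not used here. Both organoids were grown from tomato+ alveolar type 2 epithelial cells (AEC2) of SpcCreER mice crossed, per the study's methods, with a Rosa26 tdTomato line, in which tamoxifen (2 doses of 1 mg/kg) switches on the reporter in cells with an active Sftpc promoter. The FBs were GFP+ cells of PDGFRa-EGFP reporter mice that received PBS (normal) or 2 U/kg bleomycin (fibrogenic) by oropharyngeal aspiration and were harvested at day 14. Cells of 3 mice were pooled for each cell type, mixed with Matrigel and cultured for 2 weeks. The labels put the mix at 10:1, while the methods of the study describe more FBs than AEC2, so the ratio was not used. The labels give PBS or bleomycin for the FB donors only and state no ages. For the PDGFRa-EGFP line, the methods of the study describe male mice aged 10 to 14 weeks. They do not say whether 1 pool of AEC2 was divided between the cultures, so a difference between AEC2 donors cannot be told apart from the others. Each condition was 1 library. The difference between the FB donors therefore cannot be told apart from that between the cultures or the libraries, and no p-value was computed.

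AEC2 line the alveolus, store surfactant lipids and surfactant proteins such as SFTPC, and renew both themselves and the flat alveolar type 1 cells (AEC1) that carry gas exchange. On the way to AEC1 they pass through a transitional state, often called PATS, which carries keratins, stress genes and targets of p53. FBs that express PDGFRA lie next to AEC2, and in organoids they supply the growth factors without which AEC2 do not form colonies.

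Depth in the epithelial barcodes was alike. The 2 libraries held 77850073 and 57213937 epithelial UMIs, with a median of 42905 and 42108 UMIs and of 6118 and 6160 genes per barcode, normal and fibrogenic FBs in that order as in all pairs below. Mitochondrial genes took a median of 4.92% and 5.31%. The libraries as a whole were not alike, since 30.3% and 60.1% of their barcodes lay under the UMI limit. The limits cut few barcodes near them: with the other limits met, 23 and 14 barcodes had 1 UMI of Epcam, and 5 and 17 had a collagen content between 200 and 250 CPM. The libraries shared 13 barcode sequences, 1 of them epithelial in both. Cdh1 (E-cadherin), which the rule did not use, stood at 172 and 214 CPM against 0.848 and 1.21 CPM in the FB barcodes of the same libraries (1740 and 1782 barcodes with no Epcam UMI and at least 1000 CPM of collagen). Markers of immune, basal and red blood cells were low, while FB markers and the mesothelial marker Msln are described below. The 12 immune markers summed to 8.36 and 10.03 CPM, against 5.76 and 7.66 CPM in FB barcodes, with Cd68 at 5.79 and 6.42 CPM and Ptprc at 0.103 and 0.0874 CPM. Krt5, of basal cells, was at 0.0129 and 0 CPM, and the 4 globin genes summed to at most 0.0175 CPM. The Y-linked gene Ddx3y was at 56.6 and 57.7 CPM and Xist at 0.283 and 0.35 CPM.

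Summed over barcodes, most genes of the epithelium were at similar levels in the 2 cultures. Of 8048 genes with a mean of at least 10 CPM, 97.7% differed by less than 1.5-fold, and the median log2 ratio (fibrogenic over normal, after adding 1 CPM to both) was 0.04, with 5003 genes above 0. A gene was said to rise or fall when this ratio was 2-fold or more. By that rule 16 genes rose with fibrogenic FBs, which is 0.199% of the genes compared, and 13 fell, which is 0.162%. The genes that rose were Apoe, Crym, Ccnd2, Vim, Timp1, Msln, Lhfp, Cldn4, AW112010, S100a6, Ecm1, Ly6a, Ptgs2, Pmaip1, Adgrg6 and Tnip3. Those that fell were Lyz1, Ptprn2, Phgr1, Cd177, Meg3, Dmkn, St6galnac3, Pglyrp1, Hdc, Cxcl3, Cyp2c40, Filip1 and Parm1. Among those that rose, 8 were more abundant in the FB barcodes than in the epithelium, and among those that fell, 2 were, against 3050 of the 8048 genes compared. These values chose the genes described and were not tested. The intervals below are 95% intervals, Poisson for a CPM and Clopper-Pearson for a share or ratio, and they cover counting error only.

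**Figure D1:**
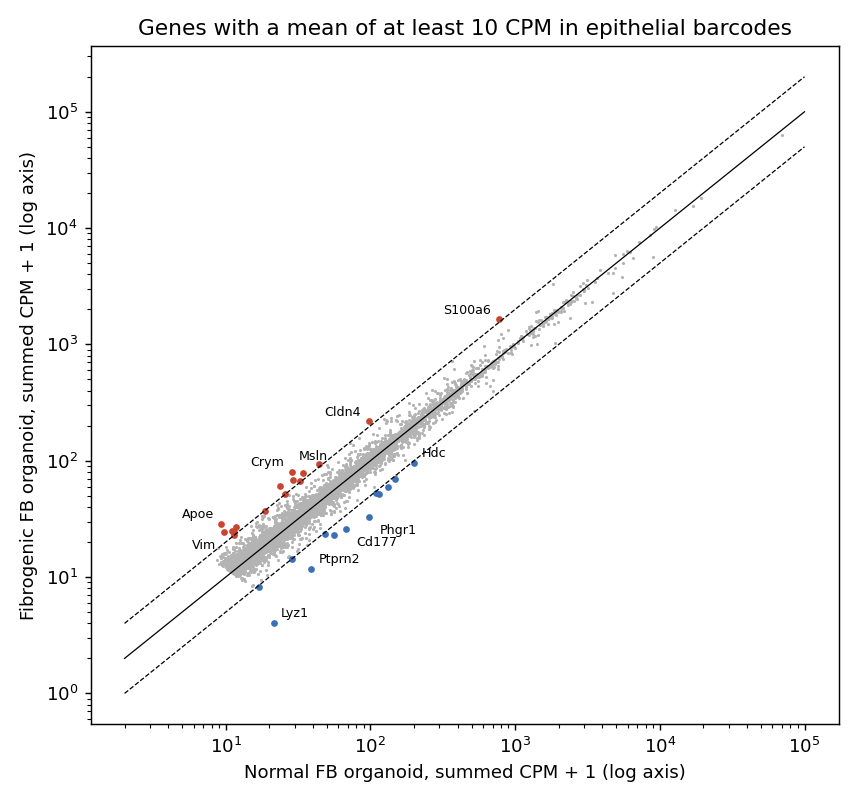
Summed CPM + 1 of each gene in epithelial barcodes of the normal (horizontal, log axis) and fibrogenic FB organoid (vertical, log axis), for the 8048 genes with a mean of at least 10 CPM. The solid line marks equal levels and the dashed lines 2-fold, red points are the 16 genes that rose, blue points the 13 that fell, and 11 of them are named.

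Sftpc split the epithelium of both cultures into 2 ranges. Barcodes in the upper range held a median of 7.92% and 8.27% of their UMIs in Sftpc, and those in the lower range 0.0397% and 0.0291%. The lower median was near that of FB barcodes, 0.0298% and 0.0246%, and without thinning 58.6% and 65.3% of the lower-range barcodes did not exceed the 90th percentile of FB barcodes. With each barcode thinned to 10000 UMIs and the limit set at 1% of UMIs, 1383 of 1635 barcodes with normal FBs were in the upper range, or 84.6% (82.7% to 86.3%). With fibrogenic FBs it was 957 of 1255, or 76.3% (73.8% to 78.6%). The low-Sftpc range held 252 and 298 barcodes, and the spread of these shares between cultures is unknown. Because the upper range held more UMIs, it made up 86.2% and 76.7% of the epithelial UMIs.

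**Figure D2:**
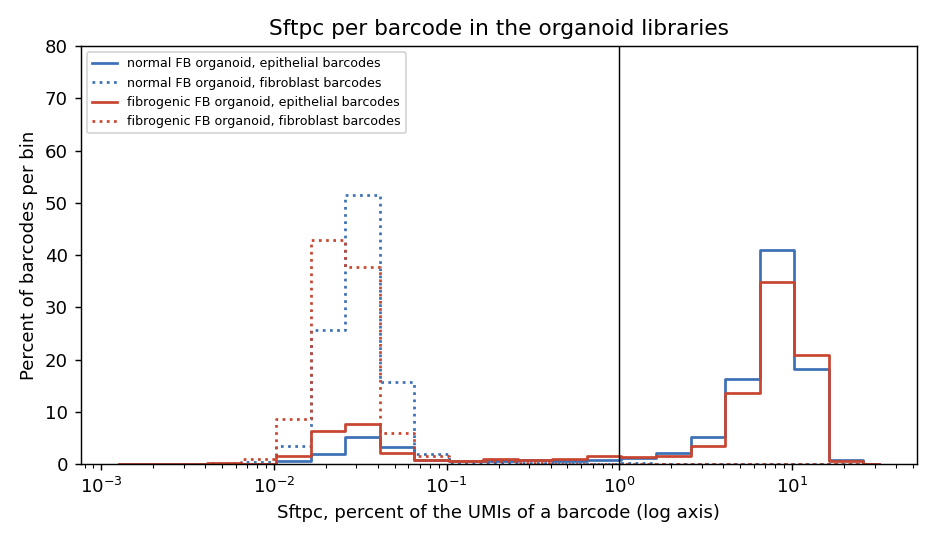
Percent of barcodes (vertical) by the percent of a barcode's UMIs that are Sftpc (horizontal, log axis, bins of 0.2 in log10) in the normal (blue) and fibrogenic (red) FB organoid, for epithelial barcodes (solid) and FB barcodes (dotted). The vertical line marks the 1% limit. Epithelial barcodes form a peak between 4% and 16% and a smaller one near the peak of the FB barcodes, which is taller with fibrogenic FBs.

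The AEC2 genes followed this split. None of the 20 genes of the AEC2 list passed 2-fold, and their median log2 ratio was -0.19, with 16 below 0 and 4 above. Sftpc itself stood at 69640 CPM with normal and 62760 CPM with fibrogenic FBs, a log2 ratio of -0.15, and within the upper range at 80600 and 81500 CPM, a log2 ratio of 0.02. Surfactant protein B (Sftpb), the lamellar body protein Lamp3, the phosphate transporter Slc34a2 and the transcription factors Etv5 and Cebpa had log2 ratios of -0.25, -0.20, -0.18, -0.19 and -0.18 over all barcodes, and -0.10, -0.03, -0.01, -0.03 and -0.03 within the upper range. The list's median within the upper range was -0.03. With both libraries given the same levels in each range but their own mix of ranges, the list's median came to -0.15.

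A few AEC2 genes were lower within the upper range as well. Surfactant protein A (Sftpa1), a secreted lectin that binds microbes, was at 1872 and 1022 CPM, a log2 ratio of -0.87, and at -0.71 within the upper range. The chemokine Cxcl15 (lungkine) was at 8986 and 5605 CPM (-0.68 over all barcodes, -0.52 within the range), the protease Napsa at 3399 and 2298 CPM (-0.56 and -0.42), and the collectin Sftpd at 2407 and 1682 CPM (-0.52 and -0.40). In the other direction, the complement component Hc was at 176 and 220 CPM (0.32 and 0.49). Lysozyme 2 (Lyz2), the most abundant lysozyme of AEC2, was at 5602 and 6030 CPM (0.11 and 0.27). None of these 6 genes passed 2-fold, over all barcodes or within the upper range.

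The transitional genes were higher as a group. Their median log2 ratio was 0.57 against 0.04 over all genes compared, 19 of the 20 genes at the level limit were above 0, and Cldn4 and Tnip3 rose. Claudin 4 (Cldn4), a tight junction protein, was at 96.2 CPM (94.0 to 98.3) and 219 CPM (215 to 222). Tnip3, an inhibitor of NF-kB signaling, was at 24.7 CPM (23.6 to 25.8) and 50.4 CPM (48.6 to 52.3).

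The other 18 transitional genes did not reach 2-fold. The cornified envelope gene Sprr1a stood at 71.4 and 142 CPM (log2 ratio 0.98), annexin 1 (Anxa1) at 366 and 714 CPM (0.96), and the secreted chaperone clusterin (Clu) at 1815 and 3339 CPM (0.88). Tissue factor (F3), the cell cycle brake Sfn (14-3-3 sigma) and the integrin subunit Itgb6, which activates TGF-beta, had log2 ratios of 0.82, 0.57 and 0.58. The simple keratins Krt8, Krt18, Krt7 and Krt19 had log2 ratios of 0.45, 0.57, 0.47 and 0.37, which were 0.06, 0.14, 0.03 and -0.08 with the same mix of Sftpc ranges in both libraries. With that mix Cldn4 and Tnip3 were at 0.51 and 0.38, Sprr1a, Anxa1 and Clu at 0.31, 0.54 and 0.28, and F3, Sfn and Itgb6 at 0.17, 0.06 and 0.15. Amphiregulin (Areg), a ligand of the EGF receptor, was the member below 0, at 176 and 143 CPM (-0.30).

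Within the upper Sftpc range 12 of 7840 genes rose (0.153%) and 8 fell (0.102%), and within the lower range 7 of 8267 rose (0.0847%) and 10 fell (0.121%). The transitional difference was smaller within each range. The list's median was 0.12 within the upper and 0.20 within the lower range, and with the same mix of ranges in both libraries it was 0.17, with 16 genes above 0 and 4 below. Giving both libraries the same levels per range but their own mix put it at 0.44. Cldn4 had a log2 ratio of 0.27 within the upper and 0.54 within the lower range, and neither reached 2-fold. Its share of barcodes with a UMI after thinning was 68.3% (62.1% to 73.9%) and 79.2% (74.1% to 83.7%) in the lower range, and 5.79% (4.61% to 7.15%) and 7.001% (5.47% to 8.81%) in the upper range, against 0.230% and 0.954% in FB barcodes. Anxa1 kept the largest difference in the lower range, at 1355 and 2345 CPM (0.79), and was at 208 and 219 CPM (0.07) in the upper range. Krt19 went below 0 in the upper range, with a log2 ratio of -0.48. Stratifin (Sfn) was detected in 51.6% (48.9% to 54.2%) and 63.6% (60.5% to 66.7%) of upper-range barcodes after thinning, against 1.61% and 3.31% of FB barcodes.

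AEC1 genes were higher by less. Their median log2 ratio was 0.27, 16 of the 17 at the level limit were above 0, and 1 of them rose: the calcium-binding protein S100a6, at 769 CPM (763 to 775) and 1656 CPM (1646 to 1667), which FB barcodes carried at 3133 and 4220 CPM. The tight junction protein Cldn18 was at 763 and 1089 CPM (0.51) and the AEC1 collagens Col4a3 and Col4a4 had log2 ratios of 0.47 and 0.44. The receptor Ager (RAGE), a common marker of AEC1, was at 1038 and 1072 CPM (0.05), and the homeodomain protein Hopx at 336 and 407 CPM (0.27). Ager was not limited to low-Sftpc barcodes here, since after thinning it had a UMI in 97.0% and 94.6% of upper-range and in 67.5% and 69.8% of lower-range barcodes, against 5.86% and 5.72% of FB barcodes. Aquaporin 5 (Aqp5) was at 938 and 848 CPM (-0.14). Within the lower range, where AEC1 genes were highest, the list's median was -0.15, with Ager at 2263 and 1801 CPM (-0.33) and Rtkn2 at 98.8 and 61.9 CPM (-0.67). With the same mix of ranges the AEC1 median was 0.02, with Hopx at -0.00011, Col4a3 and Col4a4 at 0.12 each and S100a6 at 0.46.

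**Figure D3:**
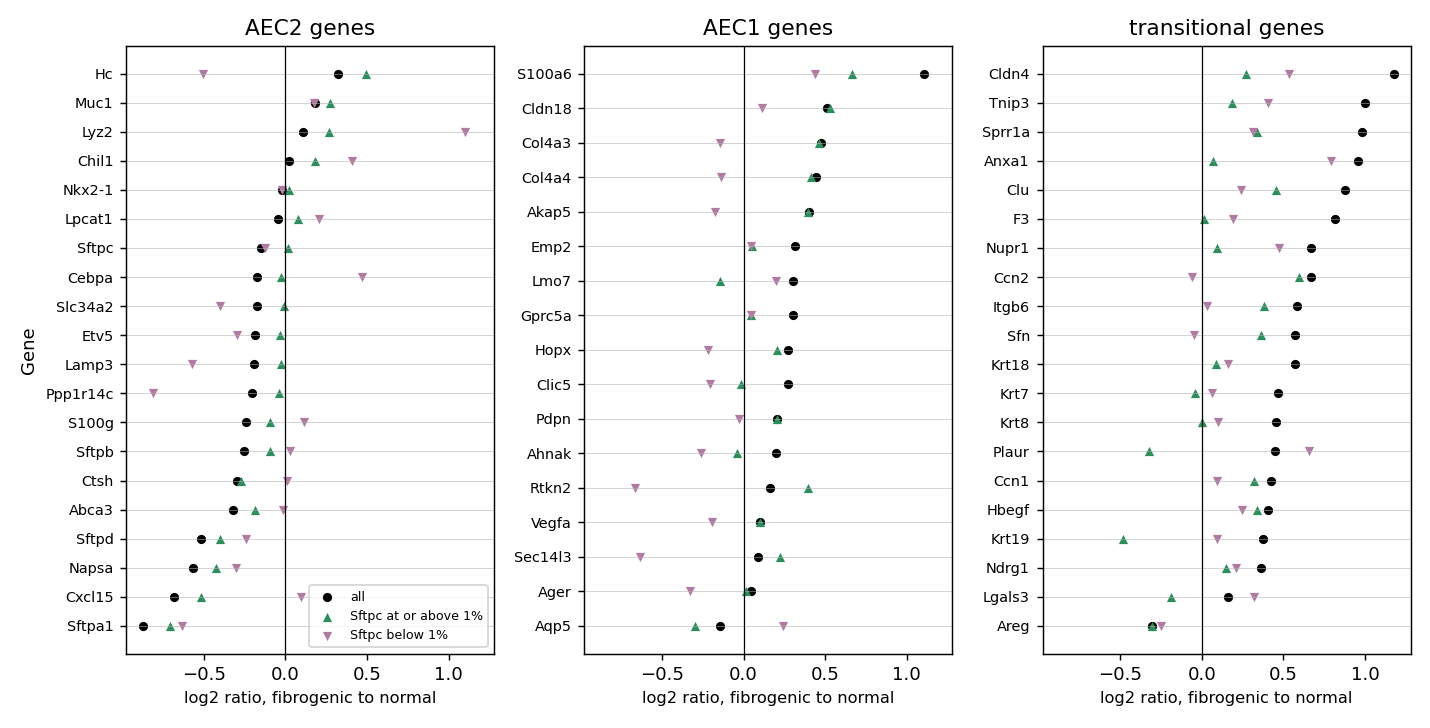
Log2 ratio (fibrogenic over normal FBs, horizontal) of each AEC2, AEC1 and transitional gene (rows) with a mean of at least 10 CPM, over all epithelial barcodes (circles) and within the upper (up triangles) and lower (down triangles) Sftpc range. Most transitional genes lie right of 0 over all barcodes and closer to 0 within each range, while Sftpa1 lies left of 0 in both.

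The low-Sftpc barcodes were also divided by their UMIs of Ager and of transitional genes. At limits of 16 Ager UMIs and 128 transitional UMIs per 10000, which were chosen after the values were seen, 138 of 252 and 166 of 298 barcodes were rich in transitional genes alone, or 54.8% and 55.7%. Barcodes rich in Ager alone were 81 and 68, or 32.1% (26.4% to 38.3%) and 22.8% (18.2% to 28.0%). Barcodes above both limits were 22 and 55, or 8.73% (5.55% to 12.9%) and 18.5% (14.2% to 23.3%). These low-Sftpc barcodes above both limits were 1.35% and 4.38% of all epithelial barcodes. Upper-range barcodes were not counted against the limits. The share above both limits was higher with fibrogenic FBs at each of the 5 pairs of limits tried, but at 32 Ager UMIs it was 3.97% (1.92% to 7.18%) and 5.03% (2.84% to 8.17%), and at 64 transitional UMIs it was 26.2% (20.9% to 32.1%) and 29.2% (24.1% to 34.7%), where the intervals overlapped. The median barcode of the lower range held 279 and 354.5 transitional UMIs and 104.5 and 125 AEC1 UMIs per 10000. The AEC1 sum includes S100a6, at 4741 and 6411 CPM in this range.

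Crym rose within both Sftpc ranges. Mu-crystallin (Crym), which binds thyroid hormone in the cytosol and is encoded on chromosome 7 (120186380 to 120201989, GRCm38.p6), was at 27.5 CPM (26.4 to 28.7) and 79.6 CPM (77.3 to 81.9), a log2 ratio of 1.5. It was at 29.2 and 91.2 CPM in the upper and at 16.9 and 41.4 CPM in the lower range. It was carried by few cells: 9.11% and 17.4% of epithelial barcodes had a UMI, and the top 1% of barcodes held 59.1% and 35.3% of its UMIs. FB barcodes had 0.190 and 0.504 CPM. After thinning, 5.26% (4.23% to 6.46%) and 11.9% (10.1% to 13.8%) of epithelial barcodes had a Crym UMI. The wider spread lay in the upper range, at 5.13% (4.03% to 6.43%) and 13.8% (11.7% to 16.1%), while in the lower range the share was 5.95% (3.37% to 9.63%) and 5.71% (3.36% to 8.98%).

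Msln, Ly6a, Ptgs2, Ccnd2 and Pmaip1 rose over all barcodes and were highest in the low-Sftpc range. Mesothelin (Msln), a surface protein of mesothelium, was at 33.1 and 77.8 CPM (1.21), at 215 and 322 CPM (0.58) in the lower range, and at 4.02 and 3.65 CPM in the upper. The other 5 mesothelial markers summed to under 1 CPM in both libraries. Ly6a (Sca-1) was at 43.5 and 93.1 CPM (1.08) over all barcodes and at 282 and 372 CPM (0.40) in the lower range. Prostaglandin synthase Ptgs2 (COX-2), at 31.7 and 65.4 CPM (1.02), cyclin D2 (Ccnd2), at 22.7 and 59.1 CPM (1.34), and the p53 target Pmaip1 (Noxa), at 10.4 and 22.2 CPM (1.02), showed the same layout: log2 ratios of 0.41, 0.89 and 0.34 in the lower range. With the same mix of ranges in both libraries, 5 genes rose and 7 fell, and 4 of the 16 and 6 of the 13 genes called above were among them. The 4 were Apoe, Crym, Vim and Timp1, at 1.72, 1.57, 1.26 and 1.11. Of these, Apoe, Vim and Timp1 were more abundant in FB barcodes than in the epithelium. Msln, Ly6a, Ptgs2, Ccnd2 and Pmaip1 did not reach 2-fold with that mix. The 6 were Lyz1, Ptprn2, Phgr1, Cd177, Meg3 and Dmkn. Reads of Ly6a may be split with its close relatives Ly6c1 and Ly6e, and counting of shared reads was not described.

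Ly6c1, Hp and Hes1 had ratios below 2-fold over all barcodes and above 0 in both ranges. Ly6c1 was at 124 and 228 CPM (0.88 over all barcodes, 0.74 and 0.67 in the upper and lower range). Haptoglobin (Hp), an acute phase protein that binds free hemoglobin, was at 129 and 218 CPM (0.76, with 0.78 and 1.00), although FB barcodes ran the other way at 226 and 82.6 CPM. The Notch effector Hes1 was at 376 and 615 CPM (0.71, with 0.70 and 0.54). The calcitonin receptor partner Ramp1 was at 75.1 and 136 CPM (0.85), with a log2 ratio of 1.30 in the upper range, where it passed 2-fold, and -0.22 in the lower.

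The genes that fell were mostly genes of high-Sftpc cells. Phgr1, a small protein known from gut epithelium, was at 96.8 CPM and 31.7 CPM (-1.58), and after thinning 32.4% (30.1% to 34.8%) and 14.4% (12.5% to 16.5%) of barcodes had a UMI. Cd177, best known as a neutrophil surface protein, was at 66.5 and 24.7 CPM (-1.40), in 21.1% (19.1% to 23.2%) and 8.53% (7.04% to 10.2%) of barcodes. The immune marker Ptprc stood under 1 CPM in both cultures, as given above. Ptprn2, a membrane protein of secretory granules, was at 38.0 and 10.8 CPM (-1.72), in 20.1% (18.1% to 22.1%) and 7.97% (6.53% to 9.61%) of barcodes, and the other 8 neuroendocrine and tuft markers apart from Dclk1 were each under 1 CPM. In FB barcodes these 3 genes were detected in at most 0.977% after thinning.

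Hdc, Pglyrp1, Cxcl3, Dmkn, St6galnac3 and Filip1 also fell. Histidine decarboxylase (Hdc), which makes histamine, was at 200 and 95.4 CPM (-1.06). Peptidoglycan recognition protein 1 (Pglyrp1), which kills bacteria, was at 147 and 68.3 CPM (-1.10), and the neutrophil-attracting chemokine Cxcl3 at 47.4 and 22.2 CPM (-1.06). Dermokine (Dmkn) was at 114 and 50.3 CPM (-1.16), the sialyltransferase St6galnac3 at 130 and 58.4 CPM (-1.15), and Filip1 at 108 and 52.1 CPM (-1.03). Just under 2-fold were Acoxl, at 150 and 74.9 CPM (-0.99), and Tmem213, at 518 and 269 CPM (-0.95). All 8 were near 0 in FB barcodes, at most 3.52 CPM, and all 8 were below 0 within the upper range, where their log2 ratios ran from -1.01 to -0.82. In the lower range they stood between 1.12 and 128 CPM with normal FBs.

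These genes were spread over many AEC2 with normal FBs and over fewer with fibrogenic FBs. The 10 genes that fell, leaving out Lyz1 and the 2 that were richer in FB barcodes, were counted in the upper range. Without thinning, 851 of 1384 barcodes with normal FBs carried UMIs of 6 or more, or 61.5% (58.9% to 64.1%). With fibrogenic FBs it was 295 of 958, or 30.8% (27.9% to 33.8%). Thinned to 10000 UMIs, these shares were 24.8% (22.5% to 27.1%) and 7.41% (5.83% to 9.26%), and barcodes with none of the 10 were 9.47% and 23.7%. The direction was the same at both depths. The summed level of the 10 genes had a median of 824 and 287 CPM per barcode, with quartiles of 358 and 1498 CPM and of 77.4 and 678 CPM. The 2 distributions overlapped widely, with the upper quartile of the fibrogenic culture below the median of the normal one. The genes were chosen for this difference, so the values describe where in the culture it lay.

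Lyz1 and Meg3 had another layout. Lysozyme 1 (Lyz1), the lysozyme of gut Paneth cells, was at 20.5 CPM (19.5 to 21.5) and 3.06 CPM (2.62 to 3.55), a log2 ratio of -2.40, but the top 16 of 1635 barcodes held 89.4% of its UMIs with normal FBs and the top 12 of 1255 held 65.1% with fibrogenic FBs. After thinning 3.00% (2.22% to 3.94%) and 1.59% (0.976% to 2.45%) of barcodes had a UMI, so the sum rested on few cells. Lyz1 and Lyz2 are near-identical copies whose reads the counting may split, which was not tested. The imprinted noncoding RNA Meg3 was at 54.9 and 21.8 CPM (-1.29), with 47.5% and 73.9% of its UMIs in the top 1% of barcodes, and FB barcodes had 59.4 and 97.4 CPM.

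Of the 18 gastrointestinal genes, Phgr1 and Cd177, described above, and Ctse were at the level limit. Psca was at 2.29 and 8.95 CPM, under that limit, with a log2 ratio of 1.60, and 10 of 1635 and 21 of 1255 barcodes had a UMI after thinning, or 0.612% (0.294% to 1.12%) and 1.67% (1.04% to 2.55%). FB barcodes had 0.00998 and 0.0394 CPM of Psca. The top 1% of barcodes held 87.1% and 83.6% of the Psca UMIs. Of the barcodes with a Psca UMI after thinning, 0 and 1 were in the upper range. Cathepsin E (Ctse) was at 22.3 and 31.9 CPM (0.50), and in the lower range at 150 and 127 CPM (-0.24). Trefoil factors Tff1, Tff2 and Tff3 and the gut regulator Cdx2 had no UMI in either culture.

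Genes of FBs were also counted in epithelial barcodes, and their levels there moved in both directions. The 17 FB markers summed to 1237 and 1604 CPM against 73720 and 59490 CPM in FB barcodes. Of the 13 markers above 100 CPM in FB barcodes, 8 (Col3a1, Col5a1, Dcn, Mgp, Bgn, Fbln1, Fbn1 and Loxl1) stood in the epithelium at 0.480% to 0.894% of the FB level with normal FBs and at 0.893% to 1.59% with fibrogenic FBs. Of the other 5, Col6a1 was at 27.2% and 18.2% of the FB level, with a log2 ratio of -0.90 in the epithelium, Sparc at 11.8% and 13.2%, and Serpinh1 at 11.6% and 11.9%, while Tagln and Acta2 are given below. Vimentin (Vim), the intermediate filament of mesenchymal cells, rose from 8.67 to 23.2 CPM, which was 0.635% and 1.39% of the FB level. The protease inhibitor Timp1 rose from 28.3 to 66.8 CPM, at 0.626% and 1.39% of it. Both lay within the range of the 8 FB genes. Plac8, at 2.07 and 4.89 CPM, was at 0.504% and 0.873% of the FB level of 410 and 561 CPM, within that range with normal FBs and just below it with fibrogenic FBs. The highest single barcode held 54 of 2205 and 589 of 3824 Timp1 UMIs, and 12 of 675 and 177 of 1328 Vim UMIs. With the collagen limit lowered to 50 CPM the log2 ratio of Timp1 was 0.91 against 1.21. The median collagen content of the epithelial barcodes, which the rule limits, was 24.7 and 52.4 CPM. The part of FB RNA in the values of Vim, Timp1 and Plac8 was not tested.

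Apoe, Lhfp, Ccnd2, Ecm1, Ptgs2 and S100a6 stood above that range. Apolipoprotein E (Apoe), a lipid carrier, rose from 8.35 to 27.9 CPM, a log2 ratio of 1.63, and was at 1.95% and 7.42% of the FB level. Its UMIs sat in few barcodes, with 45.7% and 54.3% in the top 1%. The FB markers Tagln and Acta2 had log2 ratios of -0.02 and 0.45 over all barcodes, and -0.62 and 0.11 with the same mix. They were at 5.66% and 3.78% and at 2.17% and 1.68% of the FB level, with log2 ratios of 1.03 and 1.36 in the upper and -0.95 and -0.94 in the lower Sftpc range.

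**Figure D4:**
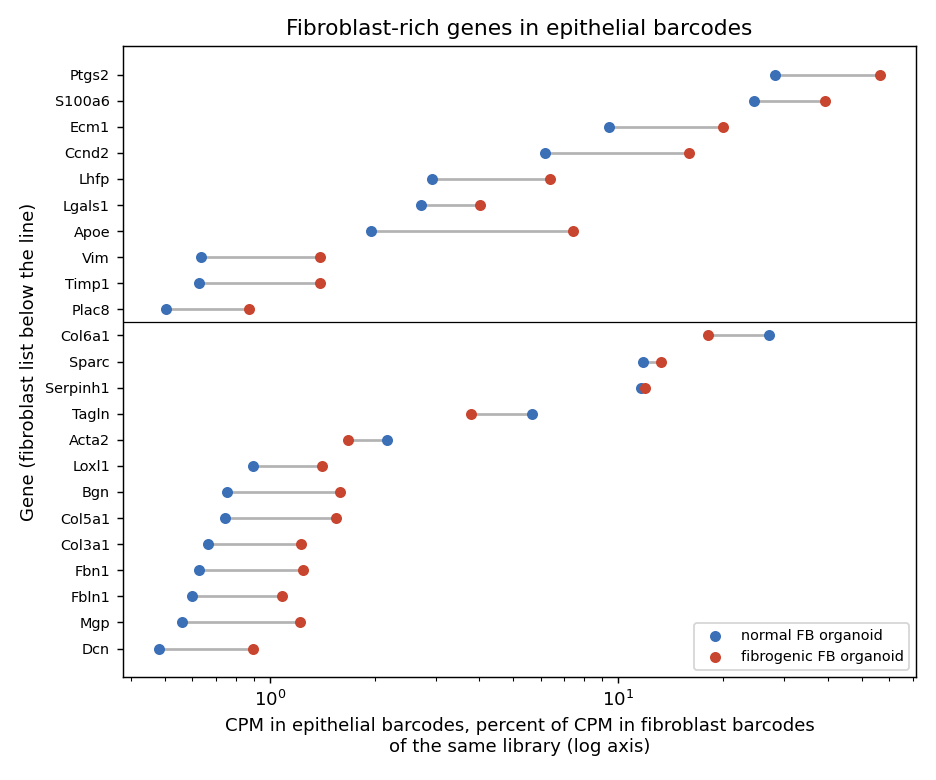
CPM in epithelial barcodes as a percent of the CPM in FB barcodes of the same library (horizontal, log axis) for normal (blue) and fibrogenic (red) FB organoids, for genes (rows) above 100 CPM in FB barcodes. FB markers are below the line and other genes above it, all of which but Lgals1 are described in the text. Vim and Timp1 lie among the 8 lowest FB markers and Plac8 among them with normal FBs and just below them with fibrogenic FBs. The percent of those 8 was 1.58 to 2.19 times as high with fibrogenic FBs, against 2.19, 2.22 and 1.73 times for these 3 genes.

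Glycolysis genes were lower as a group, each by less than 2-fold. All 15 were below 0, with a median log2 ratio of -0.40. Phosphoglycerate kinase 1 (Pgk1) was at 668 and 441 CPM (-0.60), the lactate exporter Slc16a3 (MCT4) at 64.5 and 43.0 CPM (-0.57), lactate dehydrogenase A (Ldha) at 1427 and 1003 CPM (-0.51), triose phosphate isomerase (Tpi1) at 700 and 495 CPM (-0.50) and Gapdh at 3042 and 2268 CPM (-0.42). The glucose transporter Slc2a1 differed least, at 38.7 and 36.8 CPM (-0.07). This was a difference within the upper Sftpc range, where the median was -0.47 against -0.05 in the lower, and the mix of ranges alone gave 0.00. FB barcodes ran the other way, with the 15 genes summing to 8308 and 10580 CPM there and to 9394 and 7030 CPM in the epithelium.

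Most genes of the list of responses to low oxygen went with them. Of 11 at the level limit, 10 were below 0, with a median of -0.28. The prolyl hydroxylase Egln3 was lowest, at 16.6 and 8.49 CPM (-0.89), followed by Ankrd37, at 51.7 and 36.9 CPM (-0.47), the pyruvate dehydrogenase kinase Pdk1, at 27.2 and 20.9 CPM (-0.36), and the mitophagy receptor Bnip3, at 146 and 113 CPM (-0.36). The growth arrest gene Ddit4 was the exception in the list, at 21.6 and 27.7 CPM (0.35, and 0.12 with the same mix). Vegfa, Ndrg1 and Bhlhe40, which also respond to low oxygen but were not in this list, were above 0. Their log2 ratios were 0.10, 0.37 and 0.52, and 0.02, 0.17 and 0.39 with the same mix. The 20 nuclear genes of the respiratory chain had a median of -0.02, with log2 ratios from -0.16 to 0.15. The 13 mitochondrially encoded genes had a median of 0.12, all above 0.

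The letters ACGTG, a form of the core to which the hypoxia-inducible factors bind, were looked for in the promoters of these genes. The other form, GCGTG, was not counted. In the 250 bases before the start sites given by RefSeq (GRCm38.p6), ACGTG stood on either strand in 8 of 15 glycolysis genes (53.3%) and 7 of 10 hypoxia genes with a promoter (70%), in 26.3% of the 6430 compared genes with a promoter, and in 18.5% of all 27025 genes. It was in 1 of 14 respiratory chain genes (7.14%). Genes of both lists are textbook targets of these factors, so neither share is an independent observation, and a match of letters does not show binding. For 6 genes of both lists with 2 or more matches, 30 bases around the match farthest from the start site are shown, with the matched letters (ACGTG or its reverse complement CACGT, which overlap in CACGTG) in capitals, 5′ to 3′ on the strand of the gene. A CACGTG thus counts as 2 matches, and the 2 matches of Bnip3 are the 1 CACGTG shown. All 6 genes were lower with fibrogenic FBs, by less than 2-fold.
Pgk1, chrX:106186938-106186967, + strand: gcgtcgtgcaggACGTGacaaatggaagta
Ldha, chr7:46845647-46845676, + strand: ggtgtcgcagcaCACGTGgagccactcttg
Slc16a3, chr11:120949028-120949057, + strand: caggcagcggtgACGTGcgcgggggACGTG
Hk2, chr6:82774663-82774692, - strand: agccacggaacaCACGTcccaactctggcg
Bnip3, chr7:138909597-138909626, - strand: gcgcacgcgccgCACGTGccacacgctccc
Ankrd37, chr8:46000071-46000100, - strand: cccagcagtACGTGcctagctcggctcgca

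Lipid genes were mixed. Of the 19 genes of cholesterol synthesis and uptake, 18 were below 0, with a median log2 ratio of -0.22 that was -0.15 with the same mix of Sftpc ranges. Farnesyl diphosphate synthase (Fdps) was at 627 and 467 CPM (-0.42). Fatty acid genes had a median of -0.08. The fatty acid binding protein Fabp5 was at 4724 and 2755 CPM (-0.78), while fatty acid synthase (Fasn) was at 743 and 885 CPM (0.25) and the desaturase Scd1 at 5976 and 6329 CPM (0.08). None of the 35 lipid genes passed 2-fold.

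Fewer epithelial cells were cycling with fibrogenic FBs. At 5 or more UMIs of the 20 cell cycle genes per 10000, 282 of 1635 barcodes were cycling with normal FBs, or 17.2% (15.4% to 19.2%), and 144 of 1255 with fibrogenic FBs, or 11.5% (9.76% to 13.4%). Nearly all were in the upper range, where the shares were 20.03% (17.9% to 22.2%) and 14.6% (12.5% to 17.03%), against 5 of 252 and 4 of 298 barcodes in the lower. The proliferation marker Mki67 was at 39.7 and 29.1 CPM (-0.43), cyclin B1 (Ccnb1) at 17.3 and 12.5 CPM (-0.44) and topoisomerase Top2a at 51.5 and 43.4 CPM (-0.24). Within the upper range their log2 ratios were -0.28, -0.29 and -0.08. The list's median was -0.26, which was -0.14 within the upper range and with the same mix, and none of its 19 genes passed 2-fold. The replication clamp Pcna was at 65.5 and 69.3 CPM (0.08). FB barcodes carry these genes too, at a sum of 678 and 684 CPM, and had a Top2a UMI after thinning in 14.4% and 16.8%, against 13.4% and 8.13% of epithelial barcodes.

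**Figure D5:**
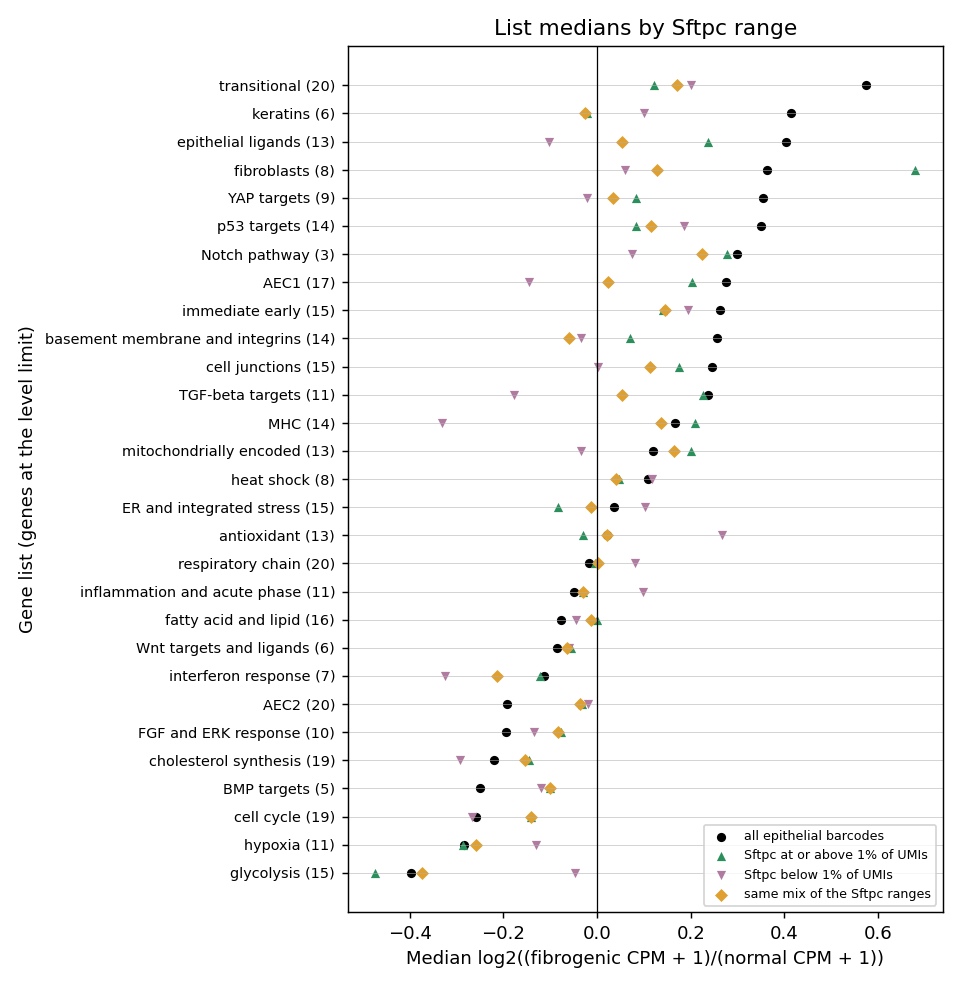
Median log2 ratio (fibrogenic over normal FBs, horizontal) of each gene list with at least 3 genes at the level limit (rows, with that number), over all epithelial barcodes (black circles), within the upper (up triangles) and lower (down triangles) Sftpc range, and with the same mix of ranges in both libraries (diamonds). The gastrointestinal list of 3 genes, with a median of -1.40, the sex genes and the genes picked from earlier results are not drawn. Among the lists drawn, transitional genes have the highest median over all barcodes (0.57) and glycolysis genes the lowest (-0.40). The former moves to 0.17 with the same mix and the latter to -0.37.

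None of the genes at the level limit in the YAP, p53, TGF-beta, BMP, Wnt and FGF lists passed 2-fold, and the p53 target Pmaip1, given above, is not in the p53 list. All 9 targets of YAP, the effector of cell stretch, were above 0, with a median of 0.36 that was 0.03 with the same mix of ranges. Ankrd1 was at 58.4 and 96.7 CPM (0.72, and 0.01 with the same mix) over all barcodes and at 403 and 404 CPM in the lower range. Of 14 listed targets of p53, 12 were above 0 (median 0.35, which was 0.08 in the upper range and 0.12 with the same mix), with the cell cycle inhibitor Cdkn1a (p21) at 240 and 379 CPM (0.66), Trp53inp1 at 25.1 and 40.2 CPM (0.66), and the stress cytokine Gdf15 at 51.2 and 78.8 CPM (0.61). With the same mix these were 0.39, 0.40 and 0.53, and Cdkn1a was at 0.56 in the upper and 0.20 in the lower range, where it was at 734 and 843 CPM. TGF-beta targets had a median of 0.24, which was 0.05 with the same mix and -0.18 in the lower range, led by Pmepa1, at 265 and 402 CPM (0.60 over all barcodes, 0.39 with the same mix, 0.78 in the upper and -0.19 in the lower range). BMP targets split, with Id1 and Id2 at -0.34 and -0.25 and Id3 at 0.84 (0.49 with the same mix), and FB barcodes carried Id3 at 788 and 785 CPM. The 6 Wnt genes had a median of -0.08, from Sp5 at -0.46 and Nkd1 at -0.37 to Tcf7l2 at 0.25, and Axin2 was at 1.18 and 1.19 CPM, under the level limit. Of 10 genes of the FGF and ERK response, 3 were above 0 and 7 below, with a median of -0.19 that was -0.08 with the same mix of ranges. They ran from the feedback inhibitor Spry1 at -0.40 to its relative Spry2 at 0.28, with the receptor Fgfr2 at -0.32.

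Among signals that the epithelium sends, 11 of 13 at the level limit were above 0 (median 0.40). The platelet-derived growth factors Pdgfa and Pdgfb, ligands of FB receptors, were at 108 and 144 CPM (0.42) and at 33.5 and 44.7 CPM (0.40). Transforming growth factor beta 2 (Tgfb2) was at 38.0 and 57.4 CPM (0.58) and the myeloid growth factor Csf2 at 8.45 and 14.3 CPM (0.69). The morphogen Bmp4 was at 125 and 92.2 CPM (-0.44). With the same mix of ranges the median was 0.05, Pdgfb turned to -0.17, and Pdgfa, Tgfb2, Csf2 and Bmp4 were at 0.17, 0.05, 0.29 and -0.34. The 24 listed genes together summed to 22810 and 15050 CPM in FB barcodes and to 1160 and 1361 CPM in the epithelium. This did not hold for each gene. Csf2 was at 0.0499 and 0.0236 CPM and Bmp4 at 11.0 and 8.29 CPM in FB barcodes, below the epithelium. Laminin alpha 3 (Lama3), of the epithelial basement membrane, was at 23.2 and 39.5 CPM (0.75), with 0.80 in the upper and 0.09 in the lower range, and the immediate early genes Dusp1 and Atf3 were at 103 and 169 CPM (0.71) and at 157 and 246 CPM (0.65). With the same mix Lama3, Dusp1 and Atf3 were at 0.42, 0.37 and 0.51, and Dusp1 was at 0.30 in the upper and 0.42 in the lower range.

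The lists of antigen presentation, interferon response and inflammation held no gene past 2-fold over all barcodes. The class II antigen-presentation genes H2-Eb1, H2-Ab1, H2-Aa and Cd74, which AEC2 express, had log2 ratios of 0.36, 0.32, 0.31 and 0.20 over all barcodes, 0.52, 0.49, 0.48 and 0.34 in the upper range, and -0.35, -0.37, -0.46 and -0.29 in the lower. Cd74 reads were at 2931 and 3373 CPM against 13.1 and 13.9 CPM in FB barcodes. Interferon-response genes had a median of -0.11, with Isg15 at 25.8 and 13.9 CPM (-0.85 over all barcodes and -1.11 in the upper range). An Isg15 UMI was in 31.4% and 31.2% of epithelial barcodes, and the top 1% of barcodes held 35.8% and 28.3% of its UMIs. FB barcodes had 108 and 131 CPM of Isg15. The 11 inflammation genes at the level limit had a median of -0.05, with 4 above 0 and 7 below, and of -0.03 with the same mix. The highest was Hp (0.76), described above. Lipocalin 2 (Lcn2) was at 4768 and 4140 CPM (-0.20), the alarmin Il33 at 281 and 214 CPM (-0.39), and the antiprotease Slpi at 284 and 222 CPM (-0.36). With the same mix Lcn2, Il33 and Slpi were at -0.05, -0.23 and -0.21. Of 13 antioxidant genes at the level limit, 7 were above 0 and 6 below, with a median of 0.02. The lowest was the cystine transporter Slc7a11, at 61.1 and 36.2 CPM (-0.74). The highest was Gsto1, at 48.9 and 90.3 CPM (0.87), which FB barcodes carried at 104 and 126 CPM. With the same mix they were at -0.62 and 0.40. The club cell marker Scgb1a1 (0.681 and 1.12 CPM) and the ciliated cell regulator Foxj1 (0.976 and 1.10 CPM) were near 0 in both cultures. The mucin Muc4 was the airway gene at the level limit, at 29.7 and 24.9 CPM (-0.24), and the 15 airway genes summed to 48.5 and 41.5 CPM.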

How the data were processed

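Single-cell suspensions of 2 organoid cultures were profiled by droplet single-cell RNA sequencing. The authors counted UMIs per gene and barcode against mm10. The submitters' processing notes name Cell Ranger 3.0.1 and Seurat 3. The methods of the study name GRCm38 with a Gencode annotation. The organoid tables hold 32285 gene rows, more than the single-dose lung tables, and whether the same annotation was used for them, and how shared reads were treated, is not given in the sources used here. The deposited values are raw counts, without normalization. Counts were summed over the epithelial barcodes of each library and scaled to CPM. Log2 ratios used a pseudocount of 1 CPM and genes with a mean of at least 10 CPM.

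The barcode rule, the 40 gene lists and the genes named were chosen with earlier results of these data known. Genes were named by rule: the top 12 and bottom 12 by log2 ratio with 50 CPM or more in either library and no lower CPM than in FB barcodes, the top 5 and bottom 5 of those with less than in FB barcodes, both extremes of every list, 10 genes picked from those earlier results, and sex genes and globins as controls. Not every gene named by this rule is described above. Other list members are examples, and the genes past 2-fold below 50 CPM were added after their values were seen. Shares used barcodes thinned to 10000 UMIs, except those of lower-range barcodes against the FB percentile, of UMIs in the top barcodes and, where said, of genes that fell. Levels within the Sftpc ranges used unthinned barcodes. Scrublet in scanpy 1.11.5 marked 1 and 0 barcodes, so doublet calling did not work and no doublets were removed. An alternative left out barcodes above the 95th percentile of UMIs. In addition 146 and 136 barcodes with Epcam and at least 1000 CPM of collagen were outside the rule. Sums, calls and intervals were run on simulated counts of 8019 genes with Poisson error only. There 200 of 200 genes with a known change, set above the 2-fold limit, were called, and 95.0% of ratio intervals held the true ratio. The simulation had no spread between barcodes or cultures. It therefore checked the computation and not how well the intervals cover these data. Work was done in Python 3.11.15 with numpy 2.4.6, scipy 1.17.1, pandas 2.3.3 and matplotlib 3.10.9.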

Additional observations from a re-analysis of the deposited data

Results flagged for a closer look

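Among the genes named or listed, 4 had log2 ratios of at least 0.5 in opposite directions in the 2 Sftpc ranges, at a mean of at least 10 CPM in both. The kinase Dclk1 had a log2 ratio of 0.67 in the upper range and -0.92 in the lower, where it was at 24.2 and 12.3 CPM with normal and fibrogenic FBs. Tppp3, a ciliated cell marker, had a log2 ratio of 0.57 in the upper range and -0.56 in the lower, where it was at 31.4 and 21.0 CPM. The FB markers Acta2 and Tagln had log2 ratios of 1.36 and 1.03 in the upper range and -0.94 and -0.95 in the lower, and FB barcodes carried them at 779 and 1395 CPM and at 1348 and 1991 CPM. With 1 library per condition, the differences between the ranges were not tested.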

How the results depend on the processing

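No paired analysis was possible because each condition was 1 library. Of 20 named genes at 2-fold, 17 kept their direction in all 16 alternatives and 3 stayed at 2-fold in all. Of 35 list medians, 12 kept their sign in all 18 alternatives. Among the alternatives of both counts, leaving out Scrublet doublets removed no epithelial barcode and so repeated the main values. The same mix of Sftpc ranges in both libraries and the thinned count of the genes that fell were chosen after seeing the data. Depth limits shares near 0, and without replicates the spread between cultures is unknown.

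The 16 genes that rose became 10 with the mean of barcode CPM, 7 with a pseudocount of 10 CPM, 37 and 5 with a mean of at least 1 and 50 CPM, 7 in the lower Sftpc range and 5 with the same mix. The 13 that fell became 8 with the pseudocount of 10 CPM, 8 in the upper range, 6 at 50 CPM and 7 with the same mix. Centring on the median gene turned 16 higher and 13 lower into 12 and 15.

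The AEC2 median of -0.19 was -0.23 centred, -0.17 without the barcodes of most UMIs, -0.032 and -0.017 in the upper and lower range, and -0.036 with the same mix. The AEC1 median of 0.27 was 0.15 with the mean of barcode CPM, 0.24 centred, at a higher UMI minimum and at collagen below 50 CPM, 0.37 at 5 Epcam UMIs, 0.21 without the barcodes of most UMIs, 0.22 without cycling barcodes, 0.20 and -0.16 in the upper and lower range, and 0.024 with the same mix. The transitional median of 0.57 was 0.50 with the mean of barcode CPM, 0.54 centred, 0.72 and 0.52 at collagen below 50 and 1000 CPM, 0.52 without the barcodes of most UMIs, 0.53 without cycling barcodes, 0.092 and 0.20 in the upper and lower range, and 0.17 with the same mix. The medians within a range apply the level limit there anew.

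The share of upper-range barcodes with normal FBs was 82.7% at collagen below 1000 CPM. With fibrogenic FBs it was 78.6% and 73.4% at collagen below 50 and 1000 CPM. At limits of 0.5% and 2% Sftpc the shares were 85.75% and 82.7% with normal FBs, and 78.5% and 74.2% with fibrogenic FBs. Cycling shares were 48.7% and 42.2% without thinning, 24.4% and 18.2% at 3 UMIs, and 12.3% and 9.004% at 10 UMIs. Among the named genes at 2-fold, directions turned for Msln in the upper range (-0.11), for Cd177 (1.70) and Dmkn (0.0055) in the lower range. Of the 35 list medians, 15 kept their sign in all alternatives run for them. Among those that changed it were MHC (-0.35), TGF-beta targets (-0.18), epithelial ligands (-0.050) and YAP targets (-0.023) in the lower range, cell cycle without cycling barcodes (0.031), and the gastrointestinal list at a mean of at least 1 CPM (0.39). Parm1, which fell, was at 4.75 and 5.56 CPM (0.19) in the lower range. The cause of these changes was not tested.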
